A study of Mus musculus with 6 samples.

Results

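Aminoacyl-tRNA synthetases are the enzymes that attach each amino acid to its own tRNA, so that the ribosome can read codons as amino acids. Their genes were taken from the expression table by symbol: an amino acid letter followed by ars, with Eprs, and with an optional 1, 2, a or b at the end. The rule found 35 of the 24421 genes in the table, 20 for cytosolic enzymes and 15, with symbols ending in 2, for mitochondrial enzymes. It did not match Ears2, Pars2 and Tarsl2, 3 further synthetase genes in the table, which are given apart. The libraries came from Treg, regulatory T cells that carry CD4 and Foxp3 and hold immune reactions in check, taken from spleen and lymph nodes of WT mice. Poly(A) RNA of 100000 cells per library was copied into cDNA with an oligo-dT primer and amplified by PCR (SMART-seq, 40 ng of total RNA). There were 3 groups of 2 libraries: unstimulated, stimulated, and stimulated with iBP, which the study's design describes as inhibiting H2AK119ub1, the histone mark of Polycomb repressive complex 1. No group had iBP without stimulation, and the labels name no age, stimulus, duration or dose. The design also names Kdm2b cKO mice, whose libraries were not analysed here.

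Most amino acids have 1 synthetase gene for the cytosol and another nuclear gene for the mitochondrial enzyme, which charges the tRNAs made from mitochondrial DNA. Kars and Gars are exceptions, since each makes the lysine or glycine enzyme of both compartments. Mitochondria charge glutamine tRNA by an indirect route that needs the Gatb, Gatc and Qrsl1 products. In the cytosol a group of synthetases is held in the multi-synthetase complex by the scaffold proteins Aimp1, Aimp2 and Eef1e1. Uncharged tRNA activates the kinase GCN2 (Eif2ak4), which favours translation of the transcription factor ATF4, and many cytosolic synthetase genes are known ATF4 targets. T cells enlarge and raise protein synthesis after activation, and MYC, which binds E-box sequences, is known to act on genes of protein synthesis in that setting.

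Promoter sequences are shown first because Aars, Farsb, Iars, Tars and Yars, the cytosolic genes whose stimulated libraries were both above the other 4, each hold at least 1 of these elements. The genes and motifs were picked with these values known. A later grouping of the same values by element is therefore a description and no independent support. RefSeq windows of 300 bases (GRCm38.p6, 250 before to 50 after an annotated start) matched 26 of the 35 genes, 13 cytosolic and 13 mitochondrial. No window was matched for Cars, Hars, Lars, Nars, Rars, Vars, Wars and Hars2, among others. Both strands were searched for TGATGNAA, the core of the element that ATF4 binds with C/EBP partners. It was in 5 of 13 cytosolic genes, in 0 of 13 mitochondrial genes and in 3.97% of the 32851 windows in the table. Each stretch below is written along the gene's own strand, with the element in capitals. In all but the Yars stretch the element lies on the opposite strand and is printed as its reverse complement.
Aars, chr8:111033840-111033869, 9 bases after the start: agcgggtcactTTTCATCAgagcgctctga
Gars, chr6:55037960-55037989, 30 bases before the start: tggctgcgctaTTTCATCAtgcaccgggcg
Iars, chr13:49682126-49682155, 7 bases after the start: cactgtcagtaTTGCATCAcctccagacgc
Tars, chr15:11399655-11399684, 15 bases before the start: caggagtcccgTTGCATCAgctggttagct
Yars, chr4:129189895-129189924, 3 bases after the start: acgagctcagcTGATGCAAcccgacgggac
The longer form TGATGCAAT, which overlaps the core, was in 2 of 13 cytosolic genes, in 0 of 13 mitochondrial genes and in 0.192% of all windows.

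The E-box CACGTG, which reads the same on both strands, was in 4 of 13 cytosolic genes, in 0 of 13 mitochondrial genes and in 7.15% of all windows. The Aars, Iars and Tars windows held it beside the ATF4-type core, and the Farsb window held it alone.
Aars, chr8:111033685-111033712, 146 bases before the start: gtcaaccctgtCACGTGacactccatgt
Farsb, chr1:78488920-78488947, 39 bases before the start: tagacaggcatCACGTGagacagcccaa
Iars, chr13:49682050-49682077, 69 bases before the start: accaatcgccaCACGTGttgtttgtagg
Tars, chr15:11399623-11399650, 19 bases after the start: ccgcctgtggcCACGTGgcgcacgcgca
In all 9 motifs were searched, with no test between the compartments. TTCCGG was in 5 cytosolic and 7 mitochondrial genes and in 14.9% of windows. CCAAT was in 7 and 5 genes and in 37.4% of windows, GGAAGT in 4 and 5 genes and in 23.8%, and CACGCG in 5 and 2 genes and in 9.27%. TGACGT was in 1 cytosolic and 3 mitochondrial genes and in 7.51% of windows, and TGACGTCA was in 0 and 0 genes and in 1.79%. These matches describe letters in a window, and no binding was measured.

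All 35 genes reached an FPKM of 1 in 2 or more libraries and entered the test among 10436 genes. FPKM, fragments scaled to transcript length and to all mapped fragments, corrects for length, so levels can be set side by side between genes. Summed over the 20 cytosolic genes, the level was 888 and 806 FPKM unstimulated, 881 and 936 stimulated, and 831 and 783 with iBP. These sums are 0.214% to 0.247% of all FPKM in a library. Both stimulated sums lay above both sums with iBP, and the unstimulated sums overlapped those of the other groups. Over the 15 mitochondrial genes the sum was 101 and 110 FPKM unstimulated, 130 and 124 stimulated, and 120 and 136 with iBP. The unstimulated libraries had the lowest mitochondrial sums, and the other groups overlapped.

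Kars, the lysine enzyme of both compartments, had the highest mean of all members at 132 FPKM over 6 libraries. It measured 127 and 122 FPKM unstimulated, 130 and 148 stimulated, and 128 and 137 with iBP. Rars, the arginine enzyme, measured 123 and 103, 109 and 95.3, and 95.5 and 93.8 FPKM in the same order of groups. Nars, the asparagine enzyme, measured 96.1 and 71.1, 82.1 and 105, and 77.5 and 63.7 FPKM, with the highest value in stimulated replicate 2. The lowest Kars value, 122, met the highest Rars value, 123, and the Rars and Nars values overlapped.

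The lowest cytosolic genes were Vars, Wars and Yars, for valine, tryptophan and tyrosine. Vars measured 12.0 and 18.7 FPKM unstimulated, 20.3 and 15.9 stimulated, and 15.5 and 17.5 with iBP. Wars, which is also known as an interferon-gamma-induced gene, measured 12.1 and 9.62, 13.8 and 16.1, and 9.72 and 16.5 FPKM. Yars measured 8.95 and 9.39, 11.3 and 11.6, and 9.76 and 6.69 FPKM. For Wars and Yars both stimulated libraries lay above both unstimulated ones, and for Vars the groups overlapped. The Vars and Wars values overlapped each other. Gars, the glycine enzyme of both compartments, stood mid-range at 48.0 and 38.4, 49.0 and 45.5, and 45.0 and 43.0 FPKM.

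**Figure D1:**
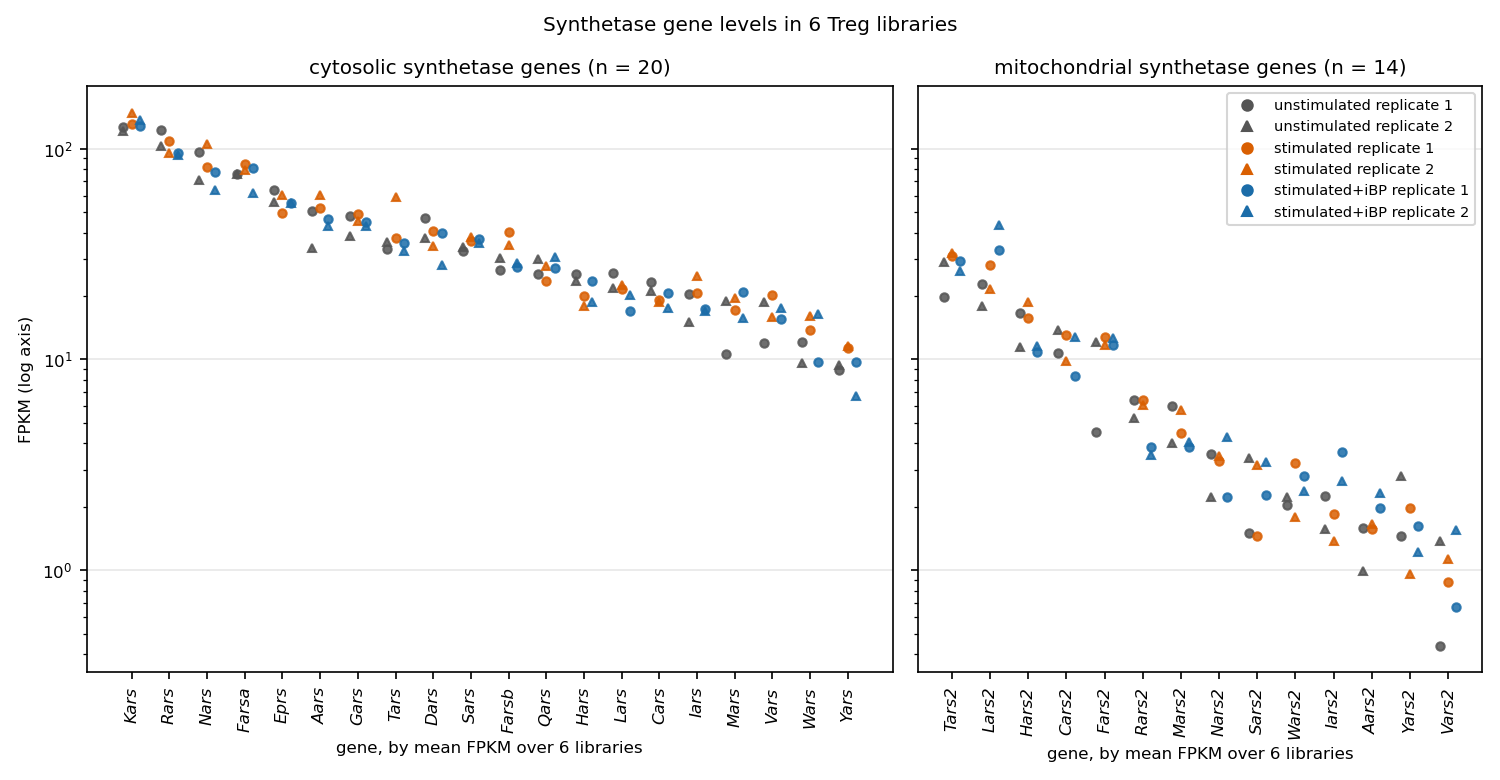
FPKM (log axis) of synthetase genes in the 6 libraries, ordered by mean level within the cytosolic set (left, 20 genes) and the mitochondrial set (right, 14 of 15 genes). Grey is unstimulated, orange stimulated and blue stimulated with iBP, with circles for replicate 1 and triangles for replicate 2. Kars lies between 122 and 148 FPKM, and Vars2 between 0.439 and 1.55.

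Phenylalanine is charged in the cytosol by an enzyme with 2 kinds of subunit, from Farsa and Farsb. Farsa was higher than Farsb in all 6 libraries, by 2.11 to 2.95 times. Each mitochondrial gene was set beside the cytosolic gene for the same amino acid in 14 such pairs. In 12 pairs the cytosolic gene was higher in all 6 libraries, from Tars over Tars2 (median ratio 1.25) to Aars over Aars2 (median ratio 32.8). Hars was higher than Hars2 in 5 of 6 libraries, with a ratio of 0.961 in stimulated replicate 2. Lars was higher than Lars2 in 3 of 6 libraries, with ratios of 1.13 and 1.22 unstimulated, 0.768 and 1.05 stimulated, and 0.515 and 0.464 with iBP.

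Among mitochondrial genes, Tars2, Lars2 and Hars2 had the highest means, 27.9, 27.8 and 14.2 FPKM. Tars2 measured 19.9 and 28.9 FPKM unstimulated, 31.0 and 32.1 stimulated, and 29.4 and 26.2 with iBP. The lowest were Aars2, Yars2 and Vars2. Aars2 measured 1.58 and 0.991, 1.56 and 1.66, and 1.97 and 2.33 FPKM, and Yars2 measured 1.45 and 2.79, 1.98 and 0.959, and 1.63 and 1.23. Vars2 measured 0.439 and 1.38, 0.879 and 1.13, and 0.670 and 1.55 FPKM, so that its replicates differed more than its groups. The remaining mitochondrial genes Cars2, Mars2, Nars2, Sars2 and Wars2 had means from 2.41 to 11.4 FPKM, and none of them differed by 0.5 or more on the log2 scale in any comparison.

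Summed FPKM ranged from 366040 to 381300 per library and 12596 to 13592 genes were above 0. The fewest, 12596, were in unstimulated replicate 1, and each other library had at least 13293. Read depth is unknown, so the counting error of single values could not be given. The 6 Treg markers (Foxp3, Cd4, Il2ra, Ctla4, Ikzf2 and Tnfrsf18) were present in every library, and Foxp3 measured 35.5 and 47.1 FPKM unstimulated, 121 and 101 stimulated, and 122 and 124 with iBP. The Treg markers made 0.280% and 0.287% of summed FPKM unstimulated, 0.406% and 0.435% stimulated, and 0.412% and 0.411% with iBP. The 6 B cell markers made 0.202% and 0.211% of summed FPKM unstimulated, 0.219% and 0.205% stimulated, and 0.187% and 0.196% with iBP. Of these, Cd79b measured 329 and 314 FPKM unstimulated, 336 and 340 stimulated, and 222 and 244.5 with iBP, and Pax5 measured 1.57 to 3.38 FPKM. With iBP against stimulated 3 of the 6 B cell markers were above 0 and 3 below. The 7 myeloid markers made 0.0175% to 0.0273%, and the 2 CD8 markers made 0.00224% to 0.00383%. Among the myeloid markers Lyz2 measured 65.5 to 99.5 FPKM, and the others stayed below 1 FPKM. None of these markers was at 0 in all 6 libraries. The 10 pancreatic acinar genes summed to 212 FPKM in stimulated replicate 2 and to 47.5 to 78.5 FPKM in the other libraries. Unstimulated replicate 1 stood apart on the first principal component, at -37.9 beside -9.32 for its replicate and 10.5 to 13.3 for the stimulated libraries of either kind. Some of the values that rest on these libraries are given with and without them, and the part that other cells played was not tested.

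The comparison of stimulated with unstimulated Treg asks how the genes stood after activation. None of the 35 synthetase genes passed the test (limma on log2(FPKM + 1), Benjamini-Hochberg adjusted p under 0.05), where 1.29% of all tested genes passed. At an unadjusted p under 0.05 there were 3 members, Aars and Farsb among them, all higher and 0 lower, beside 10.8% of tested genes (5.88% higher and 4.93% lower). The libraries of the groups did not overlap for 11 members that were higher and 2 that were lower, beside 18.7% and 19.1% of tested genes. The median difference was 0.16 over the cytosolic genes, 0.13 over the mitochondrial genes and -0.00 over all tested genes, on the log2(FPKM + 1) scale, which understates changes of low genes. The difference was above 0 for 13 of 20 cytosolic and 11 of 15 mitochondrial genes, and for 49.7% of tested genes, and 50.3% of tested genes were below 0. The median 95% interval reached 0.39 to either side of the estimate for cytosolic genes and 0.73 for mitochondrial genes, so that smaller differences could not be resolved with 2 libraries a group. In bulk samples, fewer cells of a type and less RNA per cell cannot be told apart.

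Aars, the alanine enzyme, measured 50.7 and 33.7 FPKM unstimulated, 52.5 and 60.6 stimulated, and 46.3 and 43.2 with iBP. The stimulated libraries were the highest, and the unstimulated replicates lay far apart. Its difference was 0.44 ± 0.19 (SE, limma adjusted p = 0.424). It was 0.15 without unstimulated replicate 2 and 0.73 without unstimulated replicate 1. Farsb, the beta subunit for phenylalanine, measured 26.6 and 30.2, 40.3 and 35.0, and 27.4 and 28.6 FPKM. Both stimulated libraries stood above the other 4, with a difference of 0.39 ± 0.16 (SE, limma adjusted p = 0.385). Iars, the isoleucine enzyme, measured 20.5 and 15.0, 20.6 and 24.8, and 17.3 and 17.0 FPKM, with the stimulated libraries highest by a small margin.

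Tars, the threonine enzyme, measured 33.4 and 36.3 FPKM unstimulated, 37.7 and 59.2 stimulated, and 35.5 and 32.8 with iBP. The value of 59.2 belongs to stimulated replicate 2, the library with the highest acinar sum, and the other stimulated library lay near the rest. The Tars difference was 0.43 ± 0.20 (SE, limma adjusted p = 0.466), and 0.11 without that library. Aars kept 0.34, Iars 0.22 and Farsb 0.49 without it. The part of the acinar transcripts in these values was not tested.

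Of the cytosolic genes, Hars and Cars, for histidine and cysteine, were the 2 whose stimulated libraries lay below the unstimulated ones. Hars measured 25.5 and 23.5 FPKM unstimulated, 20.1 and 17.9 stimulated, and 23.5 and 18.8 with iBP, a stimulated difference of -0.35 ± 0.18 (SE, limma adjusted p = 0.532). Its neighbour on the chromosome, Hars2, differed by 0.29 in the same comparison, and neither passed. The 8 genes of the multi-synthetase complex (Eprs, Iars, Lars, Qars, Mars, Kars, Rars and Dars) had a median of -0.10, from -0.16 for Dars to 0.35 for Iars, and 3 of 8 were above 0. The 12 cytosolic genes outside it had a median of 0.21 and 10 of 12 were above 0. Without stimulated replicate 1, Eprs went from -0.12 to 0.018 and Qars from -0.11 to 0.0053. The sign of the complex median was therefore not stable. The difference between the complex and the other cytosolic genes was not tested. The scaffold genes had 0 of 3 past the test, and Eef1e1 measured 13.8 and 13.9, 20.1 and 14.7, and 20.4 and 22.6 FPKM.

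**Figure D2:**
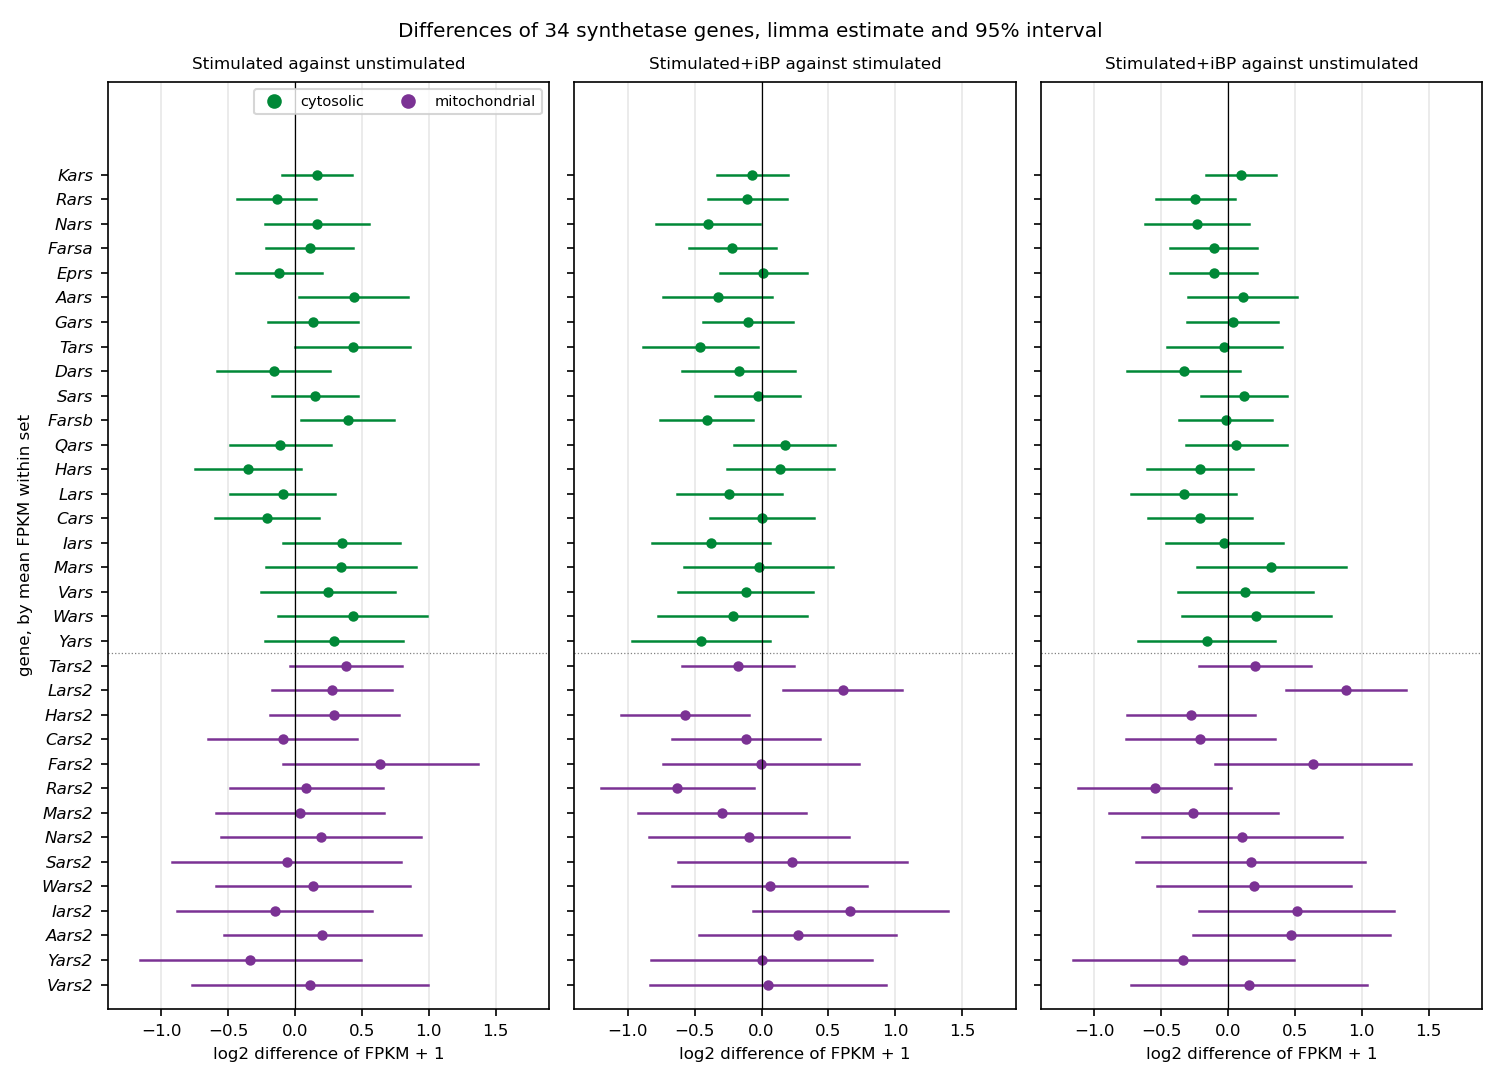
Differences of synthetase genes on the log2(FPKM + 1) scale in the 3 comparisons, with the limma estimate as a point and its 95% interval as a line, 20 cytosolic genes in green and 14 of the mitochondrial genes in purple, ordered by mean level. None passed after adjustment, and the Lars2 difference of 0.88 with iBP against unstimulated lies farthest from 0 among the genes shown.

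Fars2, the mitochondrial phenylalanine enzyme, measured 4.50 and 12.1 FPKM unstimulated, 12.8 and 11.7 stimulated, and 11.7 and 12.7 with iBP. Only unstimulated replicate 1, the library apart on the first component, was low. The stimulated difference was 0.64 ± 0.33 (SE, limma adjusted p = 0.535). Without unstimulated replicate 2 it was 1.26 (limma adjusted p = 0.0401), and without unstimulated replicate 1 it was 0.01, so that 1 library decided the value. With iBP against unstimulated it was 0.63, again 1.26 (limma adjusted p = 0.0368) and 0.01 without the same libraries. Mars, the methionine enzyme, was also low in unstimulated replicate 1 (10.7 FPKM) beside 15.7 to 20.8 FPKM in the other 5 libraries, and its differences from unstimulated of 0.34 and 0.33 were -0.04 and -0.06 without that library.

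The comparison of stimulated Treg with and without iBP asks how the inhibitor bore on the genes. None of the 35 genes passed, where 0.00958% of tested genes, a single gene, passed. At an unadjusted p under 0.05 (limma) there were 6 members, beside 4.77% of tested genes (1.46% higher and 3.32% lower). Farsb, Nars, Tars, Hars2 and Rars2 were lower and Lars2 was higher. The groups did not overlap for 13 members that were lower and 3 that were higher, beside 21.0% and 13.6% of tested genes. The median difference was -0.14 over cytosolic genes, -0.00 over mitochondrial genes and -0.03 over all tested genes. It was below 0 for 16 of 20 cytosolic genes and for 55.8% of tested genes, and above 0 for 4 and for 44.2%. Rescaling to TPM left 14 of 20 cytosolic genes and 49.7% of tested genes below 0, and leaving out a library left 13 to 17. In the complex the median was -0.09, and outside it -0.22.

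The genes with the lowest cytosolic differences were Tars (-0.46), Yars (-0.45), Farsb (-0.41), Nars (-0.40), Iars (-0.38) and Aars (-0.33). For each of these 6 the libraries with iBP lay below the stimulated libraries. Without stimulated replicate 2 the differences were -0.14 for Tars, -0.51 for Farsb, -0.22 for Nars, -0.25 for Iars and -0.23 for Aars. Yars differed by -0.70 without iBP replicate 1 and by -0.21 without iBP replicate 2. Cytosolic genes with differences above 0 were Qars (0.17), Hars (0.14), Eprs (0.01) and Cars (0.01).

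These values were set beside the elements printed above. The 5 cytosolic genes with the ATF4-type core had a median difference of 0.35 on stimulation, from 0.13 to 0.44, and of -0.38 with iBP against stimulated, from -0.46 to -0.10. The 8 without it had medians of 0.13 and -0.05. The 4 genes with an E-box had medians of 0.41 and -0.39, with all 4 above 0 in the former and below 0 in the latter, and the 9 without it had 0.13 and -0.07. With iBP against unstimulated the median was -0.03 for the 5 genes, 0.02 for the 8, -0.02 for the 4 and 0.03 for the 9. The comparisons on stimulation and with iBP share the stimulated libraries, which a high stimulated library moves in opposite directions. Without stimulated replicate 2 the medians were 0.22 and -0.23 with the core and 0.09 and 0.01 without it. The same medians were 0.28 and -0.24 with the E-box and 0.11 and 0.00 without it. Without unstimulated replicate 2 the medians on stimulation were 0.15 with the core and 0.12 without it, a smaller gap than with that library, and 0.32 with the E-box and 0.11 without it. The motifs were chosen with the values known, and no test was made of this grouping. All 4 E-box genes were among those shown because both stimulated libraries lay above the other 4 libraries. That alone fixes their signs in both comparisons, also when a library is left out, so the signs are no result about the element. Myc, given after its values were seen, measured 206 and 231 FPKM unstimulated, 389 and 459 stimulated, and 437 and 423 with iBP. It rose by 0.95 ± 0.12 on stimulation (SE, limma adjusted p = 0.00170) and differed by 0.02 with iBP against stimulated. MYC protein was not measured, and the part of MYC in the differences of the E-box genes was not tested.

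**Figure D3:**
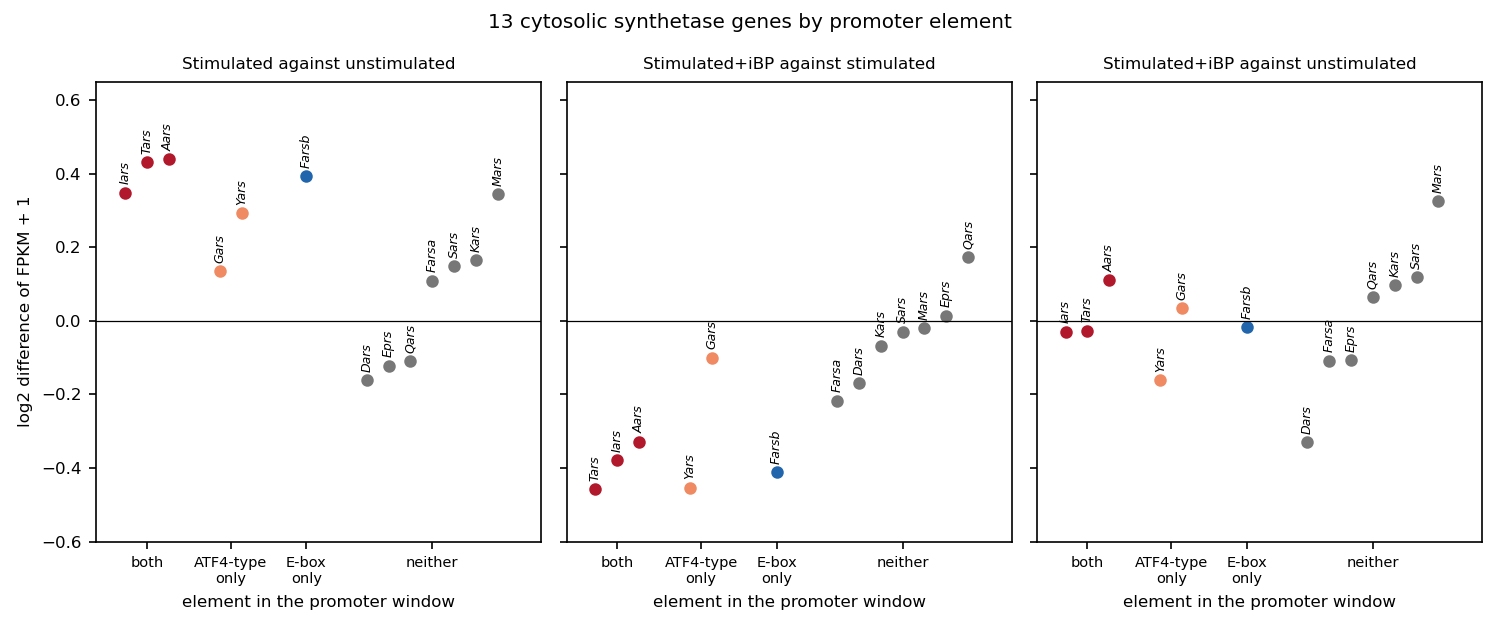
Differences on the log2(FPKM + 1) scale of the 13 cytosolic synthetase genes with a promoter window, by whether the window holds the ATF4-type core, the E-box, both or neither, in the 3 comparisons. Each point is a gene, and the motifs were chosen with these values known. Aars, Iars, Tars and Farsb, with the E-box, lie between 0.35 and 0.44 on stimulation and between -0.46 and -0.33 with iBP against stimulated, and Mars, with neither, lies at 0.34 in the left panel.

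Mitochondrial members differed in both directions with iBP. Rars2, the arginine enzyme of mitochondria (chr4:34614957-34660167), measured 6.41 and 5.27 FPKM unstimulated, 6.40 and 6.05 stimulated, and 3.83 and 3.51 with iBP. The libraries with iBP were below the other 4, by -0.63 ± 0.26 against stimulated (SE, limma adjusted p = 0.998) and -0.55 ± 0.26 against unstimulated (SE, limma adjusted p = 0.435). Hars2, the histidine enzyme, measured 16.6 and 11.5, 15.8 and 18.7, and 10.9 and 11.6 FPKM. Its iBP values lay below the stimulated ones, with a difference of -0.57 ± 0.22 (SE, limma adjusted p = 0.998), and met those of unstimulated replicate 2. Iars2, the isoleucine enzyme, measured 2.24 and 1.57, 1.84 and 1.37, and 3.66 and 2.63 FPKM. It was highest in the libraries with iBP, by 0.67 ± 0.33 against stimulated (SE, limma adjusted p = 0.998). Aars2 was also highest with iBP, with a difference of 0.27. Iars, the cytosolic isoleucine gene, differed by -0.38 in that comparison.

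Lars2, the mitochondrial leucine enzyme (chr9:123366927-123462675), measured 22.7 and 17.8 FPKM unstimulated, 28.1 and 21.5 stimulated, and 33.0 and 43.6 with iBP. The libraries with iBP were above the other 4. The difference was 0.61 ± 0.20 (SE, limma adjusted p = 0.998) against stimulated and 0.88 ± 0.20 (SE, limma adjusted p = 0.056) against unstimulated. The latter passed with a minimum FPKM of 5 (0.0307), with TPM (0.0478) and with robust variance moderation (0.0423), and its adjusted p ranged from 0.0307 to 0.443 over all alternatives. Rn45s, the row of the ribosomal RNA precursor, moved with it, at 577 and 598 FPKM unstimulated, 735 and 585 stimulated, and 877 and 1098 with iBP. The Rn45s difference was 0.74 ± 0.14 (SE, limma adjusted p = 0.0180) with iBP against unstimulated. Against stimulated it was 0.58 ± 0.14 (SE, limma adjusted p = 0.774) and did not pass. In each group the library that was higher for Lars2 was also higher for Rn45s, except in the unstimulated group. The part of ribosomal RNA in the Lars2 values was not tested.

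**Figure D4:**
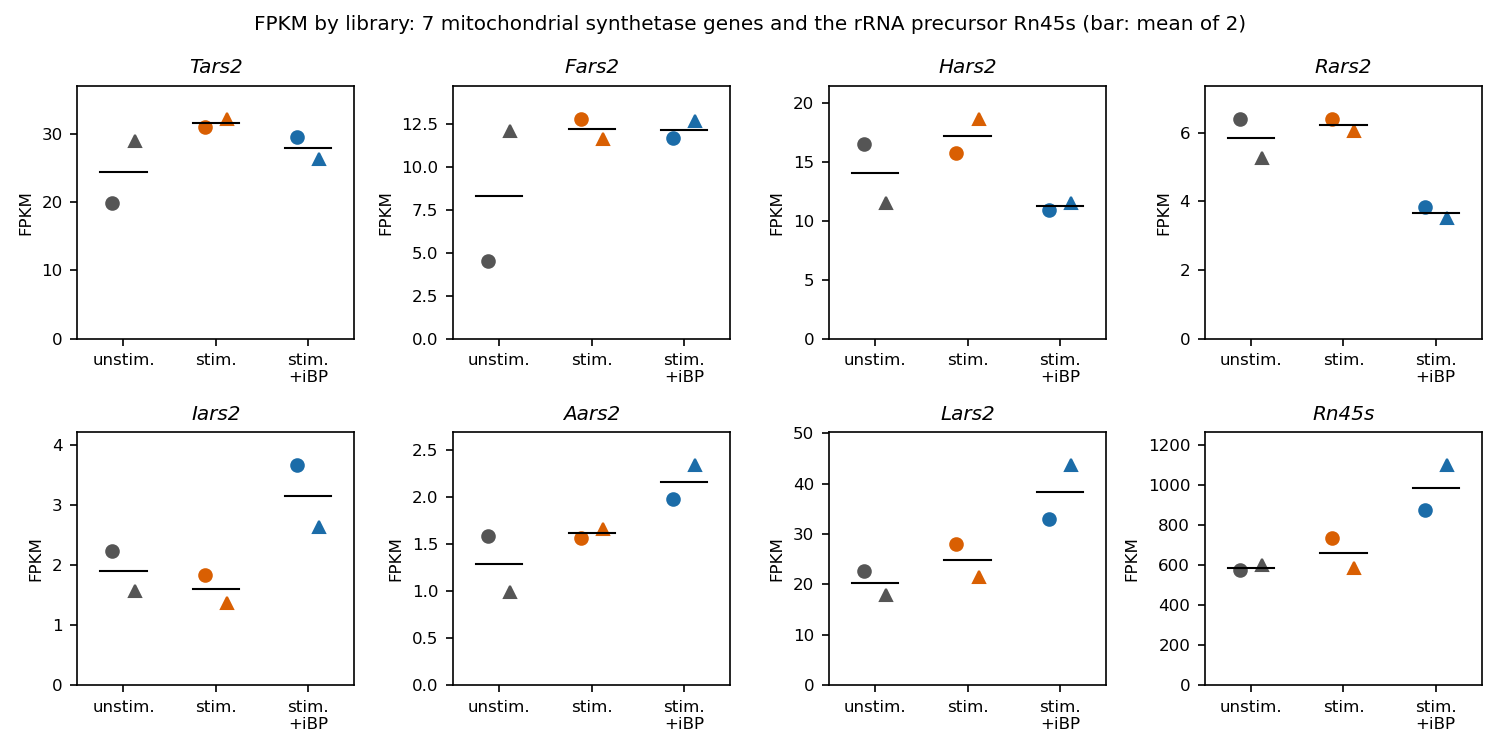
FPKM in each library of 7 mitochondrial synthetase genes and of the ribosomal RNA precursor row Rn45s, by group, with circles for replicate 1, triangles for replicate 2 and a bar at the mean of 2 libraries. Lars2 and Rn45s are highest in the libraries with iBP (33.0 and 43.6 FPKM, 877 and 1098 FPKM), Rars2 is lowest there, and Fars2 is low in unstimulated replicate 1 alone.

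Stimulated Treg with iBP against unstimulated Treg gave 0 of 35 members past the test, where 1.75% of tested genes passed. There were 2 members at an unadjusted p under 0.05 (limma), Lars2 among them, both higher, beside 12.2% of tested genes (5.22% higher and 7.02% lower). The groups did not overlap for 7 members that were higher and 5 that were lower, beside 18.1% and 23.9% of tested genes. The median was -0.03 over cytosolic genes, 0.17 over mitochondrial genes and -0.03 over all tested genes. The mitochondrial median was -0.21 with a minimum FPKM of 5, -0.021 without unstimulated replicate 1 and -0.023 without iBP replicate 2, so its direction was not stable. Of the cytosolic genes 12 of 20 were below 0 beside 54.4% of tested genes, and 8 were above 0 beside 45.6%. Below 0 were 9 of 20 after rescaling to TPM, so the direction of the cytosolic set depended on the scaling. Dars (-0.33), Lars (-0.33) and Rars (-0.24) were the lowest cytosolic genes, and Mars (0.33) the highest. All 4 belong to the complex, of whose 8 genes 3 were above 0 and 5 below. Without unstimulated replicate 1 the differences were -0.17 for Dars, -0.22 for Lars and -0.12 for Rars. For Rars, Lars, Eprs and Cars both libraries with iBP lay below both unstimulated libraries.

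The synthetase genes outside the rule were low. Ears2, the mitochondrial glutamate enzyme, measured 1.17 to 1.88 FPKM. Pars2, for proline, measured 2.58 and 4.07 FPKM unstimulated, 2.25 and 5.59 stimulated, and 0.983 and 2.14 with iBP, and its difference with iBP against stimulated was -0.89 (limma adjusted p = 0.998). Both libraries with iBP lay below the other 4. Tarsl2 was at 0 to 0.612 FPKM and was not tested. Of the 5 genes tested for glutamine amidation and formylation in mitochondria, and of 10 mitochondrial translation factors, 0 passed in any comparison.

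Genes of the amino acid response that ATF4 is known to drive were taken from a list of 32, of which 23 were tested. On stimulation 1 of 23 passed, Aldh18a1, an enzyme of proline synthesis, at 17.7 and 16.4 FPKM unstimulated, 55.0 and 61.4 stimulated, and 52.7 and 51.8 with iBP. It rose by 1.71 on the log2 scale (limma adjusted p = 0.000126) and stood 1.56 above unstimulated with iBP (limma adjusted p = 0.000332). The list had a median of 0.20 on stimulation, -0.14 with iBP against stimulated and 0.09 with iBP against unstimulated. On stimulation 16 of 23 were above 0 and 7 below, beside 49.7% of tested genes above 0. With iBP against stimulated 6 were above and 17 below, beside 55.8% of tested genes below 0. Ddit3 had the lowest difference of the list on stimulation (-0.45), at 86.4 and 78.3, 55.8 and 64.6, and 68.8 and 77.2 FPKM. Atf4 itself measured 149 and 197, 216 and 209, and 188 and 175 FPKM and did not pass (limma adjusted p = 0.454 on stimulation). Asns, which makes asparagine and is a classic target, measured 14.8 and 15.4, 13.3 and 17.0, and 12.3 and 10.4 FPKM. Its unstimulated and stimulated values overlapped. Eif2ak4 measured 1.13 to 2.75 FPKM, and 0 of 9 genes for eIF2 kinases and their phosphatase passed in any comparison.

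Genes that make and export tRNA were next in the pathway. Of 20 tested genes for tRNA processing and export 0 passed in any comparison, and 18 of 20 were below 0 with iBP against stimulated, with a median of -0.23, beside 55.8% of tested genes. Xpot, the tRNA export receptor, measured 5.05 and 8.79 FPKM unstimulated, 10.6 and 11.4 stimulated, and 8.40 and 8.32 with iBP, so that the stimulated libraries were the highest. Trnt1, which adds the CCA end to which amino acids are attached, measured 28.0 and 26.8, 26.4 and 24.9, and 21.5 and 22.1 FPKM, lowest with iBP. Of 19 RNA polymerase III genes 0 passed, with medians of 0.12, -0.06 and 0.04 in the order of comparisons above. None of the 5 genes for editing of mischarged tRNA and none of the 6 for selenocysteine insertion passed.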

How the data were processed

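The authors deposited FPKM values of 6 libraries in a single table. The submitters' processing notes name HISAT2 2.2.1, StringTie 2.1.1 and mm10. The annotation, the strand of the libraries and the handling of reads that match several places were not given in the sources used here, and close copies may share reads. Genes that reached an FPKM of 1 in 2 or more libraries (10436 of 24421) were analysed as log2(FPKM + 1) with limma 3.58.1 in R 4.3.3. A single fit held the 3 groups (3 residual and 8.52 prior degrees of freedom), with a variance trend, two-sided tests and Benjamini-Hochberg adjustment over the tested genes. The procedure was tested on simulated data with normal noise. Recovery was held to a criterion only for changes of 2 on the log2 scale, larger than any difference of a member. The labels do not tie replicates to separate animals, and p-values then cover the spread between these libraries alone, which may be technical. With a library left out, its group keeps 1 library and takes its spread from the other groups. Members named with values in each library are those with a difference of at least 0.5, the 3 highest and 3 lowest of each set, Kars and Gars. Further members were named because their unadjusted p, their place in the order or their promoter made them part of a result. Some items that come under these rules are not reported here. Members, lists and motifs were chosen with earlier results of these data known. Coordinates and promoter windows come from RefSeq for GRCm38.p6. All 35 genes were matched to a RefSeq gene by symbol or synonym, and 26 to a promoter window. Figures were drawn with matplotlib 3.10.9.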

Additional observations from a re-analysis of the deposited data

How the results depend on the processing

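The model was refitted with 0.1 as pseudocount, without the filter, with a minimum FPKM of 5, on TPM, with quantile or median-of-ratios normalization, with robust or untrended variances, with only the groups compared, with a replicate block, and with each library left out. On stimulation the number of synthetase genes past the test was 0 to 1 over the fits without a library, the 1 being Fars2 without unstimulated replicate 2, and 0 under the other alternatives. With iBP against stimulated it was 0 throughout. With iBP against unstimulated it was 1 (Lars2) with a minimum FPKM of 5, with TPM and with robust moderation, and 0 to 1 without a library (Fars2 in the same fit). The minimum FPKM of 5 left 7 mitochondrial genes: their median was 0.28 on stimulation, -0.18 with iBP against stimulated and -0.21 with iBP against unstimulated. The mitochondrial median on stimulation was also 0.26 with 0.1 as pseudocount, and 0.075 to 0.20 without a library (lowest without unstimulated replicate 2, highest without stimulated replicate 1). Without a library, the medians with iBP against unstimulated ranged from -0.13 to -0.019 for cytosolic and from -0.023 to 0.33 for mitochondrial genes. Without a library, Mars ranged from -0.041 to 0.73 on stimulation and from -0.061 to 0.71 with iBP against unstimulated, and was below 0 without unstimulated replicate 1. The larger differences of members were followed over all refits, each counted once per comparison and refit. Of these values 482 kept their direction and their side of the threshold, 5 came to pass it and 2 reversed. No member passed in the main fit, so keeping the side meant not passing. Refits that changed only the variances, the filter or a library outside the comparison left the difference itself as it was. The replicate block and the fit of only the groups compared did the same. None of these refits could reverse a direction, so the count of values that kept it is no measure of stability. Smaller differences were not counted, and some reversed. Without unstimulated replicate 2, Nars on stimulation went from 0.17 to -0.048 and Gars from 0.13 to -0.023. With the replicate number as a block, 0 synthetase genes passed in each of the 3 comparisons and the Lars2 adjusted p (limma) with iBP against unstimulated was 0.123. Replicate numbers are shared only as numbers: deviations of same-numbered libraries correlated at -0.05, -0.02 and -0.01 over genes. Over all tested genes the calls on stimulation went from 135 to 12 without the filter or without the trend, 79 with the block, 79 with only those groups and 54 to 141 without a library. With iBP against unstimulated they went from 183 to 11 without the filter, 9 without the trend, 109 with the block and 53 to 190 without a library. With iBP against stimulated they went from 1 to 0 without the filter or the trend, and 0 to 5 without a library. The causes of these changes were not tested. Depth is unknown, and mitochondrial genes of a few FPKM had the widest intervals.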

Other observations

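Genes by which mTORC1, the kinase that couples amino acid supply to growth, is known to sense amino acids were a separate list. Of 21 tested genes 0 passed in any comparison (limma), and 8 had an unadjusted p under 0.05 on stimulation, beside 10.8% of tested genes. The median was -0.21 on stimulation, 0.03 with iBP against stimulated and -0.19 with iBP against unstimulated. On stimulation 9 of the 21 genes were above 0 and 12 below. Sesn1, a leucine-sensor family member, measured 70.3 and 82.6 FPKM unstimulated, 47.2 and 59.5 stimulated, and 56.5 and 58.9 with iBP, so that the unstimulated libraries were the highest. Sesn3 was also highest unstimulated, at 27.0 and 25.3, 17.4 and 18.8, and 18.7 and 13.6 FPKM. Sesn2, of the same family, was highest in the stimulated libraries, at 6.68 and 11.4, 12.0 and 13.5, and 8.46 and 11.1 FPKM. Rragd, a Rag GTPase, was lowest unstimulated, at 1.42 and 2.26, 4.16 and 4.63, and 5.29 and 5.83 FPKM.

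Because Wars is induced by interferon-gamma in many cells, 20 other tested genes of that response were set beside it. On stimulation 1 of 20 passed, Socs1, a feedback inhibitor of cytokine signalling, at 44.7 and 43.3 FPKM unstimulated, 317 and 288 stimulated, and 293 and 318 with iBP. It rose by 2.75 on the log2 scale (limma adjusted p = 2.0e-07). The list had a median of 0.08, beside 0.43 ± 0.25 (SE, limma adjusted p = 0.603) for Wars. Irf1 measured 62.9 and 93.0, 92.5 and 89.8, and 82.1 and 87.6 FPKM, with unstimulated replicate 1 the lowest.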
